A study of Mus musculus with 52 samples.

Results

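The genes of the elastic fibre were followed through 52 mouse RNA-seq libraries, 27 from cultured astrocytes and 25 from brain. They are 10 genes: Eln (elastin), the fibrillins Fbn1 and Fbn2, the microfibril-associated proteins Mfap2, Mfap4 and Mfap5, the fibulins Fbln2 and Fbln5, and the crosslinking enzymes Lox and Loxl1. The genes were chosen by name, with their TPM by group in all 4 tables already in view. TPM is a level scaled to transcript length and to the library's total. All 10 symbols were found in each table, of 55487 genes in the first kainic-acid-model table and the CNO table, 34042 in the second cohort's table and 53700 in the astrocyte table. Because those values chose the genes, each level, difference and call below describes these libraries and is not independent support for a pattern among the members.

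All mice and cultures were C57BL/6. Wild-type astrocytes formed 5 groups of 3 libraries: untreated, given neuronal medium, given medium from Apoe knockout neurons, given oleic acid (a monounsaturated fatty acid) or given palmitic acid (a saturated fatty acid). Apoe knockout astrocytes, which lack the lipid carrier apolipoprotein E, formed 4 groups of 3: untreated, neuronal medium, oleic acid and palmitic acid. Of the brain libraries, 6 belonged to an earlier-listed cohort of KA-induced temporal lobe epilepsy, here the first (3 untreated, 3 KA), 6 to a CNO-induced epileptic model (3 untreated, 3 CNO) and 13 to another KA cohort, here the second. The latter held 3 untreated, 4 KA, 3 Apoe knockout with KA and 3 A2aR knockdown with KA libraries. An Apoe knockout group without KA was not analysed here, and the labels state neither the cell type of the knockdown nor what carried the CNO-responsive receptor. They also leave out doses, times, ages and the brain region. The titles of the medium groups carry KA, and those of untreated knockout library 3 and knockout palmitic acid library 3 carry mix, without an explanation. The labels do not say that libraries of a group came from separate cultures or animals, so p-values here measure only how far libraries scatter, and that scatter may be technical.

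Elastic fibres let arteries, lung, skin and meninges stretch and recoil. Cells secrete tropoelastin, the product of Eln, which is deposited on a scaffold of microfibrils built from fibrillins and decorated by microfibril-associated proteins. Fibulin-5 links elastin to the microfibril and to cells, and the copper enzymes Lox and Loxl1 join elastin molecules by oxidising lysines. Fibrillin microfibrils also store TGF-beta in its latent form. In brain, elastic fibres lie chiefly in vessel walls and meninges, and fibroblasts and smooth muscle are their usual makers.

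Promoter windows of 300 bases (250 before and 50 after a RefSeq start, GRCm38.p6) were on hand for 4 of the 10 members. These 4 are shown because no other member had a window. In wild-type astrocytes Fbln5, Fbln2 and Fbn1 fell past the test under both fatty acids, and Mfap2 under palmitic acid only. A link between motifs and these differences was not tested. Capitals mark the GC box GGGCGG on either strand, a binding motif of SP-family factors. For Fbln5 and Mfap2, which have 2 windows each, the window nearer the annotated 5′ end is given. Its start lies 64 bases from that end for Fbln5 and 6 for Mfap2. The start of the Fbln2 window lies 309 bases from the annotated 5′ end. That of the Fbn1 window lies 1555 bases from it, inside the annotated gene. Fbln5 is read on the minus strand at chr12:101819070-101819369, Fbln2 on the plus strand at chr6:91212514-91212813, Fbn1 on the minus strand at chr2:125506389-125506688 and Mfap2 on the plus strand at chr4:141010174-141010473.
Fbln5: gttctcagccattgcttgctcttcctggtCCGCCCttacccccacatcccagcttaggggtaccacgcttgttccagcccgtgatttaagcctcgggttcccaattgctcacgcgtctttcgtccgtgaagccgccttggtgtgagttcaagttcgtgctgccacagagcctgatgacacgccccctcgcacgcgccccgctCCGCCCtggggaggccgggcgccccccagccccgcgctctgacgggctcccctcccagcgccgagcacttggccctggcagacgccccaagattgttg
Fbln2: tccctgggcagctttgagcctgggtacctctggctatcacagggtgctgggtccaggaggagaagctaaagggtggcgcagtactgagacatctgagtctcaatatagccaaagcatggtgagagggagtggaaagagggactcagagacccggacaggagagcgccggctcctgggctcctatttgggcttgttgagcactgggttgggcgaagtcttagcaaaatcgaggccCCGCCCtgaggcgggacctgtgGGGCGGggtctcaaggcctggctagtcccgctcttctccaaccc
Fbn1: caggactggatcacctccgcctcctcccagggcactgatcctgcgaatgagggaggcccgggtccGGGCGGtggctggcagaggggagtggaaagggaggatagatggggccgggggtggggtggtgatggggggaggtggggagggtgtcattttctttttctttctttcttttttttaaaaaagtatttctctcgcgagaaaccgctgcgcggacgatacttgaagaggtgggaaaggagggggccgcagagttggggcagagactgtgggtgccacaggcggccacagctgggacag
Mfap2: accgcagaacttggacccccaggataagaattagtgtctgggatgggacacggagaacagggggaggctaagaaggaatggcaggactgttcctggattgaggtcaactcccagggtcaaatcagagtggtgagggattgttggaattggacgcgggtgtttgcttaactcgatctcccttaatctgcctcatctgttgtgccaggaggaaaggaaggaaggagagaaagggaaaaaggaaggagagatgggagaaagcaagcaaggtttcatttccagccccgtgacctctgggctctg

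The Fbln5 and Fbln2 windows held 2 GC boxes each, the Fbn1 window 1 and this Mfap2 window 0, while the other Mfap2 window held 2 and the other Fbln5 window 0. A GC box was present in 35.7% of the 32851 windows in the table. None of the 6 windows of these genes held TATAAA (13.6% of all windows), the AP-1 motif TGANTCA (7.81%) or a CArG box, the serum response factor motif (1.63%), each searched on both strands. GC content was 65.7% for Fbln5, 60.3% for Fbln2 and for Fbn1, and 52.0% for Mfap2, against a median of 52.7%. These matches describe the letters in the windows and do not mark bound sites. The gene bodies, in mm10 as the second cohort's table gives them, lie at chromosome 5, 134702593 to 134747323, minus strand, for Eln, and at chromosome 11, 61485431 to 61488900, plus strand, for Mfap4. On the opposite strand Eln overlaps the predicted gene Gm30003 and Mfap4 overlaps Mapk7. Likewise Lox overlaps AC161119.1, Fbn1 overlaps Gm9913 and Fbn2 overlaps Gm26507. The labels do not say whether counting used strand, so reads of these pairs could not be told apart with certainty.

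The labels were checked first. Apoe stood at 2221 to 5024 TPM in the wild-type astrocyte libraries and at 5.36 to 118 TPM in the knockout ones, and in the second brain cohort at 29.7 to 58.6 TPM in the 3 knockout libraries and 830 to 1697 TPM in the others. Adora2a, which encodes the A2a receptor, was at 1.75 to 2.15 TPM in the 3 libraries labelled A2aR knockdown and at 1.32 to 2.90 TPM in the 4 KA libraries, so it did not set the label apart. Library totals ran from 68760648 to 76643829 counts in the second cohort. The other tables hold TPM alone, and their depth is unknown. The 3 knockout palmitic acid libraries stood apart from the other 24 astrocyte libraries: their summed astrocyte markers came to 69.4 to 86.7 TPM, against 481.5 to 2753 TPM elsewhere, with Gfap at 2.08 to 2.56 TPM. The female transcript Xist and the Y-linked Ddx3y differed between astrocyte groups, from 30.7 to 36.8 and 14.9 to 19.1 TPM in untreated wild type to 2.79 to 3.81 and 31.3 to 33.5 TPM in untreated knockout. In wild type they were at 6.57 to 15.0 and 0.52 to 1.35 TPM with oleic acid and at 15.5 to 21.0 and 3.22 to 4.49 TPM with palmitic acid, so sex transcripts also differed in the fatty acid comparisons. In knockout, Xist and Ddx3y were at 7.12 to 8.55 and 22.9 to 31.0 TPM with neuronal medium. With oleic acid they were at 2.12 to 2.72 and 14.25 to 15.16 TPM, and with palmitic acid at 0 to 0.05 and 1.86 to 15.68 TPM. Culture and group therefore cannot be told apart between genotypes, with fatty acids or within knockout. In wild type they were at 35.3 to 47.4 and 16.9 to 19.1 TPM with neuronal medium. With Apoe knockout neuronal medium they were at 30.9 to 33.8 and 12.6 to 16.4 TPM. Both medium groups overlapped untreated wild type in Xist and Ddx3y, though the labels do not say whether they shared cultures. Mitochondrial genes took 5.32% to 6.83% of TPM in the 15 astrocyte libraries without a fatty acid, 2.96% to 4.53% in the 6 with oleic acid, 3.48% to 4.17% in wild type with palmitic acid and 1.51% to 2.94% in knockout with palmitic acid; the part of this in the results was not tested. In the second brain cohort the 3 untreated libraries had 121.6 to 145.1 TPM of Xist and the other 10 at most 0.310 TPM, so there the sex of the mice and the treatment cannot be told apart.

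Untreated wild-type astrocytes carried far more elastic fibre RNA than brain. The 10 genes summed to 1168 ± 48.2 TPM (mean ± SD, n = 3) in these cultures, and the sums in the brain libraries ran from 20.4 to 58.5 TPM. The tables were processed separately, so this difference in level was not tested. Fbln5 was the most abundant member at 355 ± 11.3 TPM, followed by Lox at 267 ± 18.9, Fbln2 at 130 ± 10.6, Mfap4 at 121 ± 8.64, Loxl1 at 106 ± 8.75 and Eln at 91.8 ± 5.98 TPM. Fbn1 stood at 50.7 ± 0.525, Mfap2 at 22.8 ± 2.84, Mfap5 at 14.2 ± 1.66 and Fbn2 at 10.3 ± 1.10 TPM. Fbln5 and Lox together made up 53.3% of the sum. The same cultures held 1433 to 1503 TPM of 13 fibroblast and meningeal markers without Igfbp2, which alone stood at 11883 to 12356 TPM and set the sum of the full list of 14 (13386 to 13821 TPM), and 3743 to 4133 TPM of the smooth muscle actin gene Acta2. They also held 148 to 159 TPM of 8 endothelial markers, among which Cldn5 was at 0, and the part of such cells in the members' levels was not tested. In bulk RNA, fewer cells of a type and less RNA per cell cannot be told apart.

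**Figure D1:**
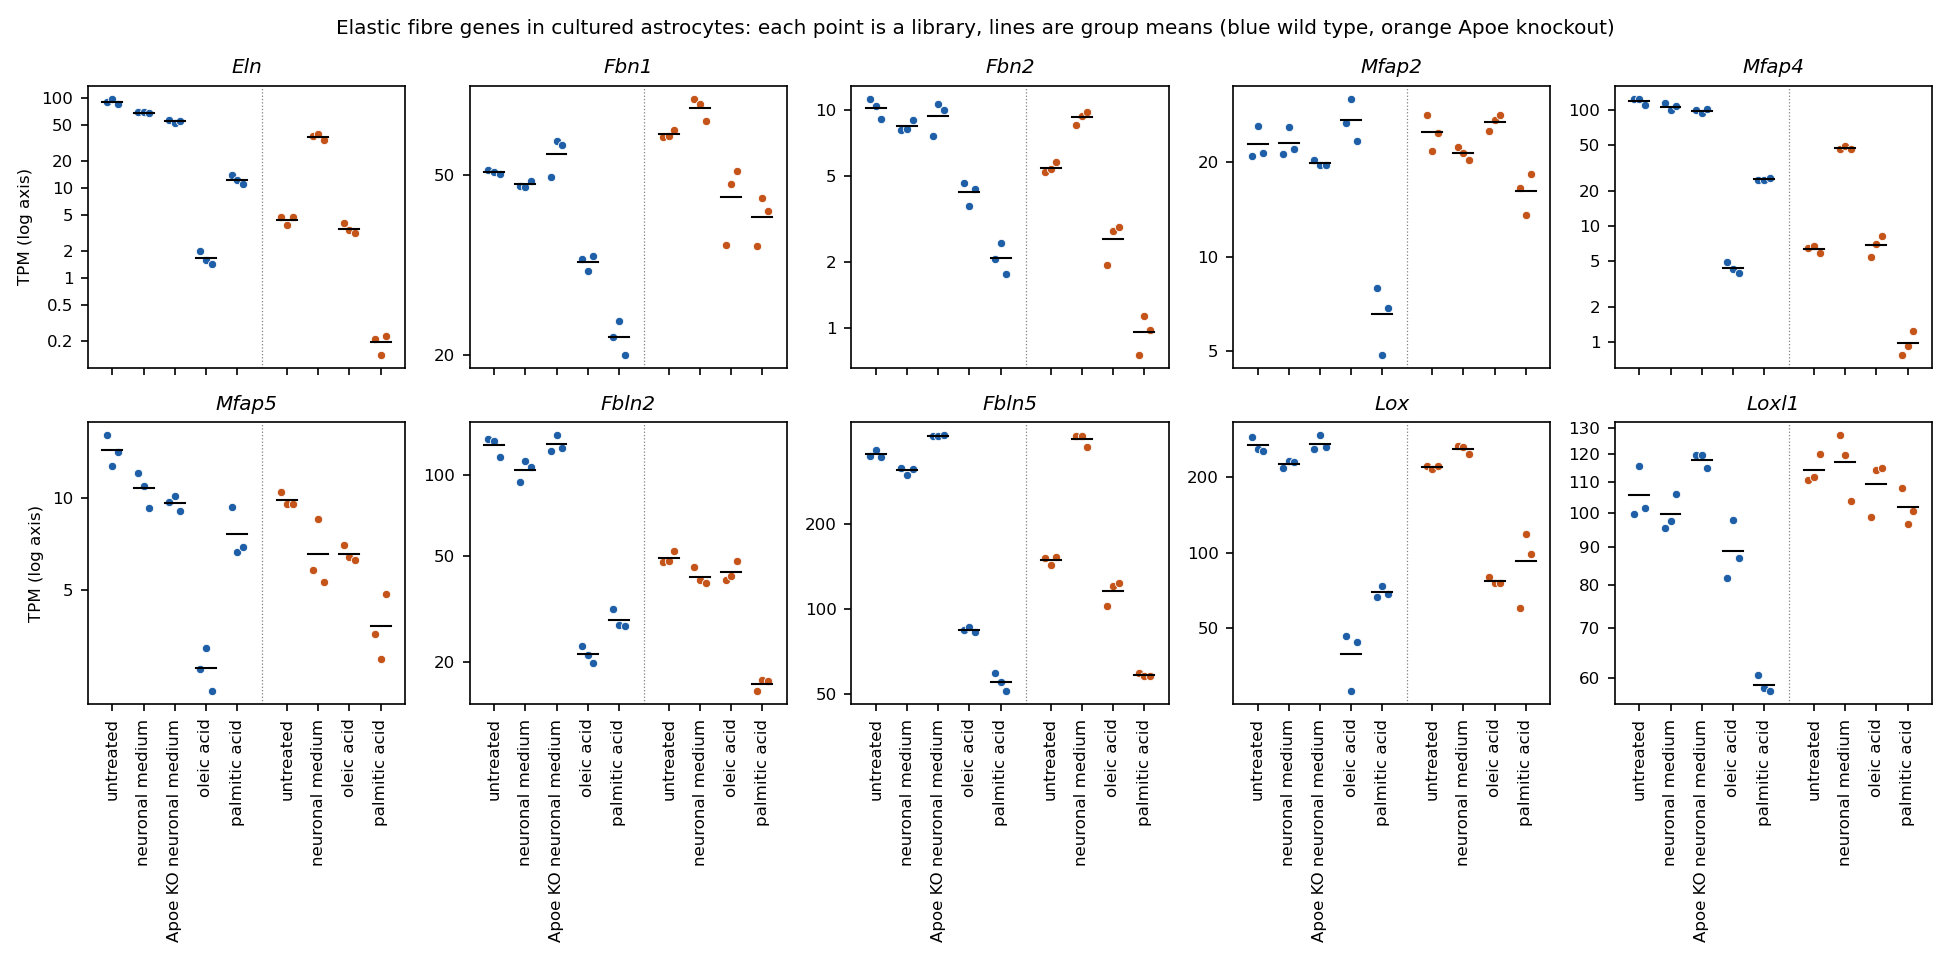
TPM of each of the 10 genes (log axis, a scale for each gene) in the 27 astrocyte libraries by group; points are libraries, lines are group means, blue is wild type and orange Apoe knockout. Eln runs from 87.1 to 98.5 TPM in untreated wild type down to 0.14 to 0.23 TPM in knockout with palmitic acid, while Loxl1 stays between 57.5 and 127.4 TPM in all 27 libraries.

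Past limma's test, 9 of the 10 genes were lower with oleic acid than untreated in wild-type astrocytes, Eln the most. Eln, the elastic protein itself, was at 89.8, 98.5 and 87.1 TPM in the untreated libraries and at 1.99, 1.61 and 1.44 TPM with oleic acid. The groups lay far apart, with means that differed 54.7-fold, and the difference was -5.12 ± 0.10 on the log2(TPM + 1) scale (± SE). That scale understates the change of low genes, and the untreated libraries serve as control in every wild-type treatment comparison here.
Mfap4, a microfibril-bound glycoprotein that binds tropoelastin, was at 126.0, 125.3 and 110.7 TPM untreated and at 4.91, 4.24 and 3.96 TPM with oleic acid (log2 -4.50 ± 0.11). Lox stood at 288.8, 258.2 and 254.1 TPM untreated and at 46.6, 28.1 and 44.1 TPM with oleic acid (log2 -2.75 ± 0.17). Fbln2, a basement membrane fibulin, fell from 130 ± 10.6 to 21.4 ± 1.56 TPM (log2 -2.55 ± 0.09). In each of these genes the highest oleic acid library lay below the lowest untreated one.
Fbln5 fell from 355 ± 11.3 to 84.4 ± 1.54 TPM and Mfap5, a small elastin- and fibrillin-binding protein, from 14.2 ± 1.66 to 2.79 ± 0.445 TPM. The fibrillins fell less, Fbn2 from 10.3 ± 1.10 to 4.21 ± 0.512 TPM and Fbn1 from 50.7 ± 0.525 to 32.1 ± 1.27 TPM. Loxl1 fell by 0.25 ± 0.08 on the log2 scale, from 106 ± 8.75 to 88.8 ± 8.29 TPM. That call was lost without untreated library 2 (adjusted p = 0.0749), without oleic acid library 1 (adjusted p = 0.0648) and in a fit of these groups alone (adjusted p = 0.0512). Mfap2, which binds fibrillin and TGF-beta family ligands, did not pass, at 27.3 ± 4.26 against 22.8 ± 2.84 TPM. Of all genes tested, 59.8% passed limma's test in this comparison and 28.6% passed as lower. The median difference was -2.04 log2 for the members and 0.00 over all genes.

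All 10 members were lower with palmitic acid in wild-type astrocytes past limma's test, where 59.8% of all genes passed and 33.1% were lower. Fbln5, the tether between elastin and the cell surface, was at 351, 368 and 347 TPM untreated and at 59.4, 55.1 and 51.0 TPM with palmitic acid (log2 -2.67 ± 0.06). Eln stood at 13.9, 12.4 and 11.2 TPM with palmitic acid (log2 -2.79 ± 0.10) and Mfap4 at 25.0, 24.8 and 26.1 TPM (log2 -2.21 ± 0.11). These levels lay below every untreated library and above every oleic acid library of Eln and Mfap4. Mfap2 fell to 7.91, 4.85 and 6.87 TPM from 21.0, 26.1 and 21.4 TPM (log2 -1.67 ± 0.14). Lox fell to 69.5 ± 3.53 TPM, Fbln2 to 28.8 ± 2.40, Fbn1 to 21.9 ± 1.92, Fbn2 to 2.10 ± 0.345, Mfap5 to 7.62 ± 1.46 and Loxl1 to 58.7 ± 1.53 TPM. The median difference was -1.89 log2 for the members and -0.08 over all genes.

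The fatty acids differed in which members they left lowest. Between oleic and palmitic acid in wild-type cells, 5 members were higher and 5 lower with oleic acid past limma's test, where 58.2% of all genes passed. Lower with oleic acid were Eln (log2 -2.33 ± 0.10), Mfap4 (-2.30 ± 0.11), Mfap5 (-1.18 ± 0.15), Lox (-0.83 ± 0.17) and Fbln2 (-0.41 ± 0.09). Higher with oleic acid were Mfap2 (1.92 ± 0.14), Fbn2 (0.75 ± 0.13), Fbln5 (0.61 ± 0.06), Loxl1 (0.59 ± 0.08) and Fbn1 (0.53 ± 0.11). The summed level was much the same, 307 ± 3.72 TPM with oleic acid and 288 ± 10.4 TPM with palmitic acid, but its makeup was not: Loxl1 led with 29.0% under oleic acid and Lox with 24.1% under palmitic acid.

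**Figure D2:**
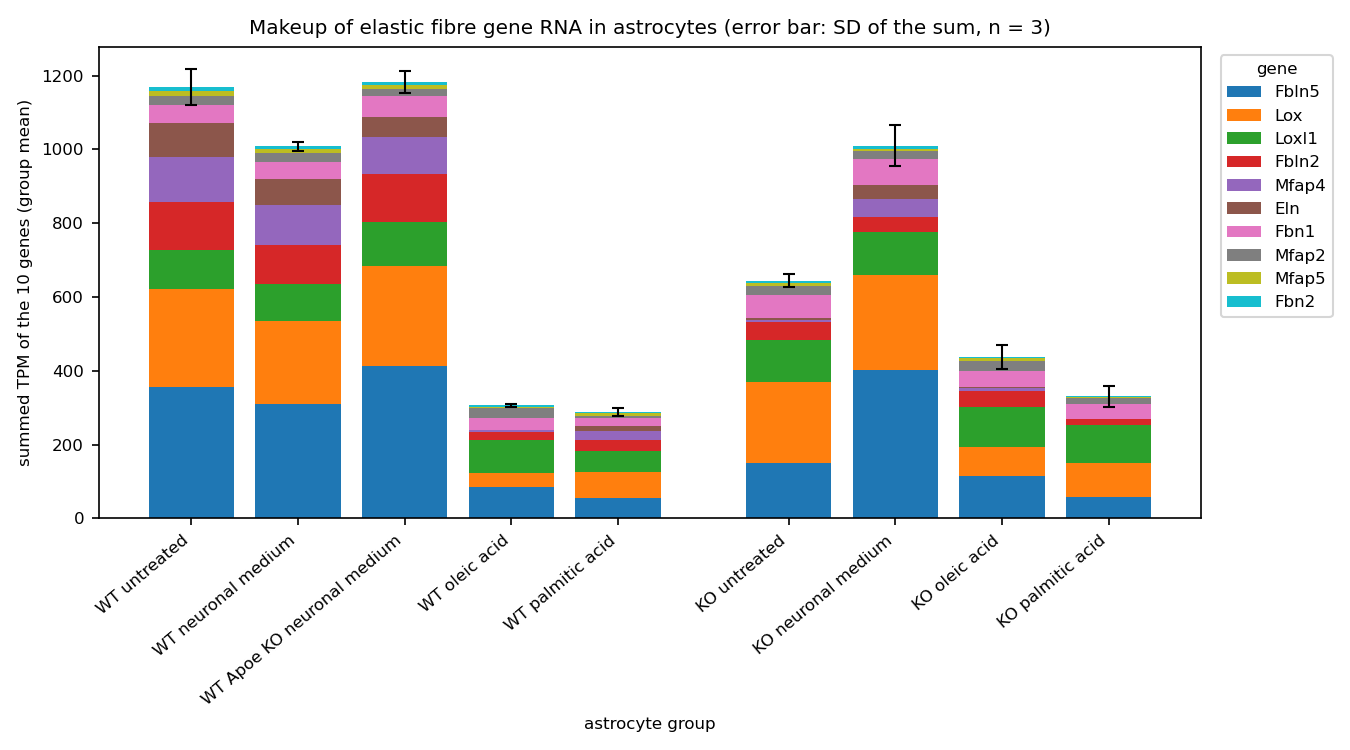
Summed TPM of the 10 genes by astrocyte group, each bar split by gene (group means; error bar, SD of the sum, n = 3). The wild-type bars fall from 1168 TPM untreated to 307 with oleic and 288 with palmitic acid, and the knockout bar rises from 644 TPM untreated to 1010 with neuronal medium.

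Other matrix genes of the elastic fibre moved in both directions with either acid. Both comparisons called 59.8% of all genes, 28.6% (oleic) and 33.1% (palmitic) as lower, and several of the counts that follow lie near those shares. Of 17 tested microfibril- and elastin-associated proteins outside the members, 5 were higher and 6 lower with oleic acid, with a median of -0.11 log2. Ltbp1, which tethers latent TGF-beta to microfibrils, rose from 17.5 ± 0.699 to 48.5 ± 1.98 TPM with oleic acid and to 79.2 ± 2.40 TPM with palmitic acid, and Ltbp3, of the same family, rose with oleic acid (0.67 ± 0.07 log2). Efemp1, a fibulin, fell from 111 ± 5.74 to 39.7 ± 4.08 and 26.7 ± 2.26 TPM, and Emilin1, an elastin microfibril interface protein, fell with oleic acid to 9.67 ± 1.82 from 29.0 ± 2.17 TPM. With palmitic acid 3 of the 17 were higher and 12 lower, with a median of -0.83 log2.
Of 6 other lysyl oxidases and maturation enzymes, 2 were higher and 2 lower with oleic acid and 2 and 4 with palmitic acid. Loxl3 rose to 86.1 ± 6.46 and 132 ± 7.07 TPM from 60.3 ± 1.75, while Loxl2 fell to 65.6 ± 1.97 and 63.6 ± 2.87 TPM from 118 ± 2.52. Of 17 TGF-beta ligands, receptors and targets, 7 rose and 6 fell with oleic acid and 6 and 7 with palmitic acid: Tgfb1 rose to 52.9 ± 8.41 and 46.1 ± 2.64 TPM from 13.5 ± 0.807, and Tgfb2 fell to 10.8 ± 1.56 TPM with oleic acid from 34.2 ± 1.71. Of 8 elastin-degrading proteases, 1 rose and 5 fell with oleic acid and 2 and 3 with palmitic acid, Mmp2 falling to 16.5 ± 0.322 and 17.0 ± 1.34 TPM from 116 ± 6.99. These lists were chosen with earlier results of these data known.

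Markers of the cells that usually make elastic fibres moved in the same comparisons. The 13 fibroblast and meningeal markers without Igfbp2 summed to 434 to 449 TPM with oleic acid and 380 to 430 TPM with palmitic acid, against 1433 to 1503 TPM untreated. With Igfbp2 included the sums were 7116 to 8315, 9720 to 11163 and 13386 to 13821 TPM, a smaller difference. In the tests, of 12 markers of that list 11 fell and 0 rose with oleic acid, and 10 fell and 1 rose with palmitic acid. Col3a1, a fibrillar collagen of fibroblasts, went from 118 ± 7.06 to 5.58 ± 1.45 and 5.36 ± 0.531 TPM. Mural cell markers summed to 3876 to 4357 TPM with oleic acid, 3279 to 3645 with palmitic acid and 7239 to 7919 untreated, and endothelial markers to 23.7 to 45.2, 16.5 to 19.3 and 148 to 159 TPM. Astrocyte markers summed to 1085 to 1118 TPM with oleic and 656 to 804 with palmitic acid, against 2130 to 2390 untreated, and choroid plexus and ependymal markers to 171 to 205 and 62.7 to 76.6 against 193 to 231 TPM. Microglia markers went the other way, to 678 to 760 and 712 to 812 TPM from 375 to 414, and neuron markers stood at 291 to 305 and 439 to 441 against 417 to 451 TPM. Slc6a13 was at 0 in the fibroblast list with both acids and Dpt with palmitic acid, Abcc9 in the mural list with oleic acid, Cldn5 in the endothelial list with both and Emcn with oleic acid. Gjb6 was at 0 in the astrocyte list with both acids, and Rbfox3 and Snap25 in the neuron list with oleic acid. In wild type without an acid, Slc6a13 was also at 0 with both media and Cldn5 untreated. The part of these cells in the fall of the members was not tested.

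**Figure D3:**
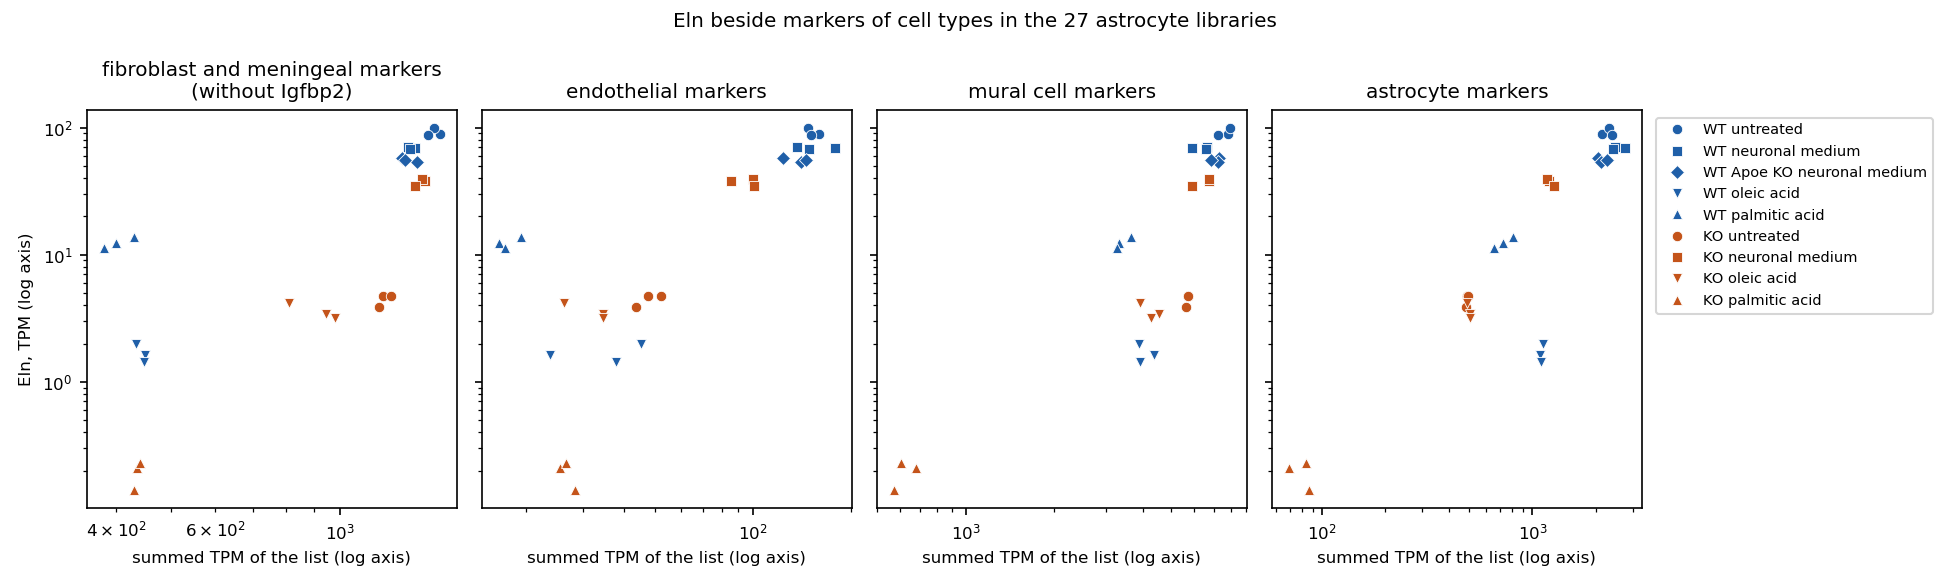
Eln in TPM (log axis) against the summed TPM (log axis) of 4 cell type marker lists, each point 1 of the 27 astrocyte libraries, with colour for genotype and shape for treatment. Untreated knockout libraries, at 1170 to 1233 TPM of fibroblast and meningeal markers, have 3.86 to 4.77 TPM of Eln, and knockout libraries with neuronal medium, at 1357 to 1413 TPM of those markers, have 34.7 to 39.5 TPM.

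In wild-type cells the members differed little with medium from neurons. Against untreated, limma's test called 0 of the 10, where 0.0371% of all genes passed. At an unadjusted p under 0.05 there were 4 members, and 1031 of all 16161 tested genes. Eln stood at 69.5, 70.3 and 68.2 TPM, below all 3 untreated libraries, with a difference of -0.40 ± 0.10 log2 (limma adjusted p = 0.191). With medium from Apoe knockout neurons in place of normal neuronal medium, 1 member passed, where 1.42% of all genes did. That was Fbln5, which rose from 318, 301 and 314 TPM to 412, 414 and 416 TPM (log2 0.41 ± 0.06, limma adjusted p = 0.000596). Eln was at 58.0, 53.4 and 55.7 TPM there, a difference of -0.31 ± 0.10 log2 that passed only in a fit of these groups alone (adjusted p = 0.0379, against 0.125). Both comparisons share the neuronal medium libraries.

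Apoe knockout astrocytes had little Eln and Mfap4 before any treatment. Untreated, Eln was at 4.77, 3.86 and 4.76 TPM in knockout and 89.8, 98.5 and 87.1 TPM in wild type, a 20.6-fold difference in means (log2 -4.09 ± 0.10). Mfap4 was at 6.53, 6.73 and 5.86 TPM in knockout and 126.0, 125.3 and 110.7 TPM in wild type (log2 -4.04 ± 0.11). No knockout library came near a wild-type one in either gene.
Fbln2 was lower at 49.0 ± 2.51 TPM (log2 -1.38 ± 0.09), Fbln5 at 149 ± 5.64 TPM (-1.25 ± 0.06), Fbn2 at 5.45 ± 0.283 TPM (-0.80 ± 0.13) and Mfap5 at 9.83 ± 0.491 TPM (-0.49 ± 0.15). Fbn1 was higher, at 61.6 ± 1.28 TPM (0.28 ± 0.11 log2), a call that was lost without any 1 of the 6 libraries (adjusted p from 0.0676 to 0.0982) and with no filter on low values. Mfap5 was no longer called without untreated wild-type library 1 (adjusted p = 0.0657). Lox, Loxl1 and Mfap2 did not pass, with means of 219, 114 and 24.9 TPM, though Lox (-0.28 ± 0.17 log2) passed as lower in a fit of these groups alone (adjusted p = 0.00307). In all, 1 member was higher and 6 lower, where 44.9% of all genes passed. The same comparison took Col3a1 from 118 ± 7.06 to 6.46 ± 0.269 TPM and the endothelial markers from 148 to 159 TPM down to 43.6 to 52.0 TPM, whereas the fibroblast and meningeal markers without Igfbp2 summed to 1170 to 1233 TPM against 1433 to 1503. With Igfbp2 that list summed to 5610 to 6022 TPM against 13386 to 13821. Astrocyte markers summed to 482 to 496 TPM in knockout against 2130 to 2390, choroid plexus and ependymal markers to 95.5 to 98.3 against 193 to 231, mural markers to 5625 to 5713 against 7239 to 7919 and microglia markers to 319 to 341 against 375 to 414 TPM. Their part in the difference was not tested. Among the associated proteins, 11 of 17 were higher and 5 lower in knockout, Ltbp1 standing at 142 ± 0.294 TPM.

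In knockout astrocytes 4 of the members were higher with neuronal medium than untreated. Eln was at 38.0, 39.5 and 34.7 TPM with medium and at 4.77, 3.86 and 4.76 TPM without, an 8.38-fold difference in means (log2 2.82 ± 0.10). Mfap4 went to 46.5, 49.3 and 46.1 TPM from 6.53, 6.73 and 5.86 TPM (2.71 ± 0.11), and Fbln5 to 414, 413 and 376 TPM from 151, 143 and 153 TPM (1.42 ± 0.06). Every library with medium lay above every untreated one in these 3 genes. Fbn2, the fibrillin typical of developing tissue, rose to 9.27 ± 0.631 TPM (0.67 ± 0.13 log2), and Mfap5 fell to 6.54 ± 1.71 TPM (-0.55 ± 0.15), a call lost without medium library 3 (adjusted p = 0.0626). So 4 members were higher and 1 lower, where 31.2% of all genes passed. A fit of these groups alone called 8 members, adding Fbn1, Lox and Fbln2. The 31.2% belongs to the fit with all groups, and the share for the smaller fit is not given here. That count of 8 is therefore not a result about the members.
Astrocyte markers rose beside them, summing to 1170 to 1267 TPM from 482 to 496, as did endothelial markers (85.6 to 101 from 43.6 to 52.0 TPM, Cldn5 at 0) and Col3a1 (23.4 ± 0.624 from 6.46 ± 0.269 TPM). Mural markers summed to 5868 to 6735 TPM against 5625 to 5713, choroid plexus and ependymal markers to 215 to 235 against 95.5 to 98.3, and fibroblast and meningeal markers to 1357 to 1413 against 1170 to 1233 without Igfbp2 and to 8377 to 8487 against 5610 to 6022 with it. Microglia markers were lower, at 250 to 255 against 319 to 341 TPM. Their part in the rise was not tested. Tgfb1 fell from 63.9 ± 2.85 to 23.9 ± 1.93 TPM and Loxl3 from 204 ± 13.1 to 70.8 ± 6.04 TPM.
With medium on both genotypes, 3 members were higher and 4 lower in knockout, where 21.4% of all genes passed. All genes split into 1964 higher and 1487 lower, and into 1263 and 1619 once scaled by median ratios. Eln (-0.87 ± 0.10 log2), Mfap4 (-1.17 ± 0.11), Fbln2 (-1.31 ± 0.09) and Mfap5 (-0.65 ± 0.15) were lower, and Fbn1 (0.55 ± 0.11), Fbln5 (0.37 ± 0.06) and Loxl1 (0.23 ± 0.08) were higher. The Loxl1 call was lost under 9 alternatives, with adjusted p up to 0.349. The effect of medium differed between genotypes for 4 members, all more positive in knockout, where 18.5% of all genes had a differing effect: Eln by 3.21 ± 0.13 log2, Mfap4 by 2.87 ± 0.15, Fbln5 by 1.61 ± 0.09 and Fbn2 by 0.92 ± 0.18.

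**Figure D4:**
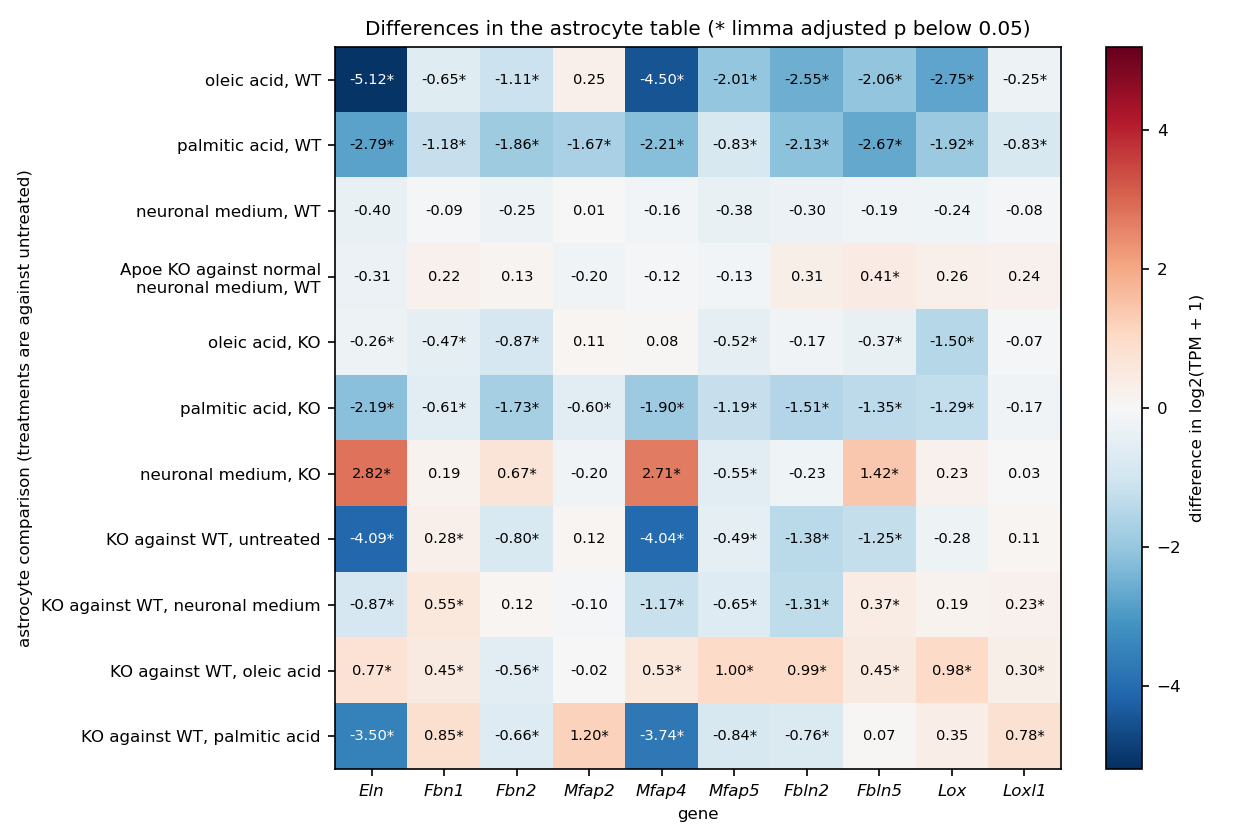
Differences in log2(TPM + 1) for the 10 genes (columns) in 11 astrocyte comparisons (rows), blue for lower and red for higher, with an asterisk where limma's adjusted p was below 0.05. Eln and Mfap4 stand at -5.12 and -4.50 under oleic acid in wild type, at -4.09 and -4.04 in untreated knockout against wild type, and at 2.82 and 2.71 under neuronal medium in knockout.

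In knockout astrocytes oleic acid found Eln already low. Eln was at 4.13, 3.41 and 3.15 TPM with oleic acid and at 4.77, 3.86 and 4.76 TPM without, overlapping groups whose difference of -0.26 ± 0.10 log2 passed limma's test (adjusted p = 0.0328) but not under 8 alternatives (adjusted p up to 0.149). Mfap4 stood at 5.37, 7.01 and 8.15 TPM against 6.53, 6.73 and 5.86 TPM and did not pass. Lox fell most, to 79.7, 75.7 and 75.8 TPM from 221, 215 and 221 TPM (log2 -1.50 ± 0.17). Fbn2 (-0.87 ± 0.13), Mfap5 (-0.52 ± 0.15), Fbn1 (-0.47 ± 0.11) and Fbln5 (-0.37 ± 0.06) fell too. In all, 6 members were lower and 0 higher, where 41.8% of all genes passed and 20.1% were lower.
The effect of oleic acid differed between genotypes for 6 members, all less negative in knockout, where 29.6% of all genes had a differing effect. Those were Eln (4.86 ± 0.13 log2), Mfap4 (4.58 ± 0.15), Fbln2 (2.37 ± 0.12), Fbln5 (1.69 ± 0.09), Mfap5 (1.49 ± 0.22) and Lox (1.26 ± 0.24). Untreated knockout Eln and Mfap4 had means of 4.46 and 6.37 TPM. On this scale even complete loss from there would be a smaller fall than in wild type. The sign for both genes was therefore fixed by the starting level. Under oleic acid itself, 8 members were higher and 1 lower in knockout than in wild type, where 33.3% of all genes passed. Eln stood at 3.56 ± 0.508 against 1.68 ± 0.282 TPM and Lox at 77.1 ± 2.26 against 39.6 ± 10 TPM. Fbn2 was the member that was lower, at 2.56 ± 0.529 against 4.21 ± 0.512 TPM, and Mfap2, at 26.9 ± 1.64 against 27.3 ± 4.26 TPM, did not pass. In a fit of these groups alone the calls of Mfap4 (adjusted p = 0.0526), Fbn1 (adjusted p = 0.0520) and Loxl1 (adjusted p = 0.0590) were lost. Under oleic acid fibroblast and meningeal markers without Igfbp2 summed to 810 to 980 TPM in knockout and 434 to 449 in wild type, with Igfbp2 to 5918 to 6649 and 7116 to 8315, and astrocyte markers to 491 to 507 and 1085 to 1118 TPM. Within knockout, microglia markers summed to 862 to 946 TPM with oleic acid and 319 to 341 untreated, and mural markers to 3908 to 4547 and 5625 to 5713 TPM. Their part was not tested.

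Eln and Mfap4 were close to 0 with palmitic acid in knockout cells. Eln was at 0.21, 0.14 and 0.23 TPM, against 4.77, 3.86 and 4.76 TPM untreated, and Mfap4 at 0.77, 0.93 and 1.25 TPM, against 6.53, 6.73 and 5.86 TPM. Both groups of libraries lay apart in each gene. In all, 9 members were lower and 0 higher, where 75.3% of all genes passed and 55.4% were lower. Besides Eln (log2 -2.19 ± 0.10) and Mfap4 (-1.90 ± 0.11), Fbn2 (-1.73 ± 0.13), Fbln2 (-1.51 ± 0.09), Fbln5 (-1.35 ± 0.06), Lox (-1.29 ± 0.17), Mfap5 (-1.19 ± 0.15), Fbn1 (-0.61 ± 0.11) and Mfap2 (-0.60 ± 0.14) fell. Loxl1 did not pass, at 108, 96.5 and 101 TPM (log2 -0.17 ± 0.08), though it passed as lower without palmitic acid library 1 (adjusted p = 0.0371).
These are the libraries that stood apart from the rest. The median of all genes was -0.47 log2, and median-ratio scaling brought it to -0.08 (a shift of 0.39). The members then came to 7 lower and 1 higher, Loxl1 at 0.39 log2, with Mfap2 (-0.06) and Fbn1 (-0.06) no longer called, and all genes to 5759 higher and 6260 lower in place of 3222 and 8946. Mural markers summed to 570 to 678 TPM there, with Abcc9 and Kcnj8 at 0, against 5625 to 5713 untreated, and the fibroblast and meningeal markers without Igfbp2 to 431 to 441 TPM against 1170 to 1233 (1820 to 2300 against 5610 to 6022 with Igfbp2). Their part was not tested.
Under palmitic acid, 3 members were higher and 5 lower in knockout than in wild type, where 66.7% of all genes passed. Scaled by median ratios, which shifted the all-gene median by 0.31 log2, both counts were 5, and all genes split into 5398 higher and 5169 lower in place of 2941 and 7836. Eln (-3.50 ± 0.10) and Mfap4 (-3.74 ± 0.11) were lower, and Mfap2 (1.20 ± 0.14), Fbn1 (0.85 ± 0.11) and Loxl1 (0.78 ± 0.08) higher.
Between the acids in knockout, 7 members were higher and 0 lower with oleic acid, where 69.7% of all genes passed, and 5 and 3 when scaled by median ratios, a shift of -0.37 log2 in the all-gene median that left 5283 genes higher and 5256 lower in place of 8686 and 2584. Eln differed by 1.93 ± 0.10 log2, Mfap4 by 1.97 ± 0.11 and Fbln2 by 1.34 ± 0.09.
The effect of palmitic acid differed between genotypes for 7 members, all less negative in knockout, where 57.6% of all genes had a differing effect. Scaled by median ratios, a shift of 0.37 log2, 9 members differed, and all genes split into 4639 higher and 4257 lower in place of 2319 and 6985. Fbln5 (1.32 ± 0.09) and Mfap2 (1.08 ± 0.20) differed most. For Eln the sign depended on the pseudocount, 0.59 ± 0.13 with 1 and -1.09 with 0.1: its mean fell 7.35-fold in wild type and 23.1-fold in knockout, the latter to levels near 0. The Lox call (0.63 ± 0.24) was lost under 7 alternatives.

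Across the 9 astrocyte groups the members fell into different orders. Eln, Mfap4 and Fbn2 were highest in untreated wild type, at means of 91.8, 121 and 10.3 TPM, and all 3 were lowest in knockout with palmitic acid. For Eln only untreated and oleic acid knockout, at 4.46 and 3.56 TPM, overlapped among neighbours in the order. Fbln5 and Lox were highest with Apoe knockout neuronal medium, at 414 and 271 TPM, and lowest with palmitic and with oleic acid in wild type, at 55.2 and 39.6 TPM. Fbn1 was highest in knockout with neuronal medium, at 70.5 ± 4.13 TPM. Loxl1 showed the flattest profile, where every neighbour overlapped except the lowest, wild type with palmitic acid. Mfap2 also overlapped along the order except below Apoe knockout neuronal medium, at 19.9 TPM, and between its lowest groups, knockout and wild type with palmitic acid, at 16.2 and 6.54 TPM.
The gene whose astrocyte profile was most like that of Eln was Mfap4, with a Pearson r of 0.992 on log2(TPM + 1) over 27 libraries, the highest of 16160 genes. The nearest genes outside the members were F13a1, a coagulation factor subunit (r = 0.989), Tll1, a tolloid-like protease (0.988), Matn3, a matrilin (0.986), Ccdc3 (0.982) and Emid1 (0.982). F13a1 was at 9.45 ± 1.5 TPM in untreated wild type, 0.710 ± 0.174 with oleic acid, 1.36 ± 0.263 in untreated knockout and 5.70 ± 0.670 in knockout with medium. Among the members r with Eln ran from 0.870 for Fbln2 and 0.843 for Fbln5 to 0.154 for Loxl1 and 0.014 for Mfap2. These libraries share their groups, cultures and markers, so r describes the groups as much as the genes.

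Brain held low levels of the members. In the first KA cohort 7 of the 10 met the filter of at least 1 TPM in at least 3 libraries. Limma's test called 0 of them, where 0.183% of all genes passed. At an unadjusted p under 0.05 there was 1 member, and 2069 of all 15331 tested genes. Fbln5 was at 5.71, 6.70 and 5.28 TPM with KA and at 3.16, 3.43 and 2.04 TPM untreated, groups that did not overlap (log2 0.84 ± 0.23, limma adjusted p = 0.183). All 7 differences were above 0, with a median of 0.43 log2 against 0.25 over all genes, and median-ratio scaling shifted the latter by -0.26 and took all genes from 24 higher and 4 lower to 24 and 8. Mfap4 stood at 14.2, 11.1 and 5.36 TPM with KA against 8.46, 4.29 and 3.89 TPM. Lox, below the filter, was at 1.05, 1.08 and 0.78 TPM with KA and 0.29, 0.36 and 0.10 TPM untreated, and Mfap5 and Fbn2 were below it too. Untreated library 3 was the lowest for Fbn1 (0.42 TPM), Fbn2 (0.18 TPM), Fbln2 (1.75 TPM) and Fbln5, and it had 9.01% of TPM from mitochondrial genes, against 13.1% to 16.4% in the other 5. Fibroblast and meningeal markers without Igfbp2 summed to 109 to 135 TPM with KA and 50.4 to 84.9 TPM untreated (195 to 256 against 108 to 114 with Igfbp2), astrocyte markers to 2434 to 4035 against 1420 to 1979, microglia markers to 1054 to 2602 against 446 to 530, and choroid plexus and ependymal markers to 1545 to 2336 against 160 to 1132 TPM. Their part was not tested.

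In the CNO set 1 of 7 tested members passed limma's test, where 3.70% of all genes did. Mfap4 was at 9.47, 8.47 and 7.07 TPM with CNO and at 3.79, 4.38 and 5.06 TPM untreated, without overlap (log2 0.79 ± 0.16, limma adjusted p = 0.0402). With the replicate number as a block, which pairs the libraries of this set, the adjusted p was 0.0532 and no member passed, nor did any with median-ratio scaling (adjusted p = 0.0589), with no filter (0.122) or without any 1 of the 6 libraries (0.0812 to 0.155). Fbln2 (5.61 ± 0.782 against 3.39 ± 0.840 TPM), Loxl1 (4.17 ± 0.933 against 2.59 ± 0.0929 TPM) and Fbln5 (8.75 ± 0.910 against 6.26 ± 0.905 TPM) did not pass, and Eln was at 5.85 ± 1.21 against 6.17 ± 0.543 TPM. Of 16 associated proteins 2 were higher, Efemp2 and Thsd4. Astrocyte markers (4154 to 4311 against 1952 to 2217 TPM) and microglia markers (1026 to 1225 against 419 to 463 TPM) were higher with CNO, while fibroblast and meningeal markers without Igfbp2 overlapped (108 to 136 and 117 to 143 TPM, or 198 to 245 and 182 to 213 with Igfbp2). Their part was not tested.

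**Figure D5:**
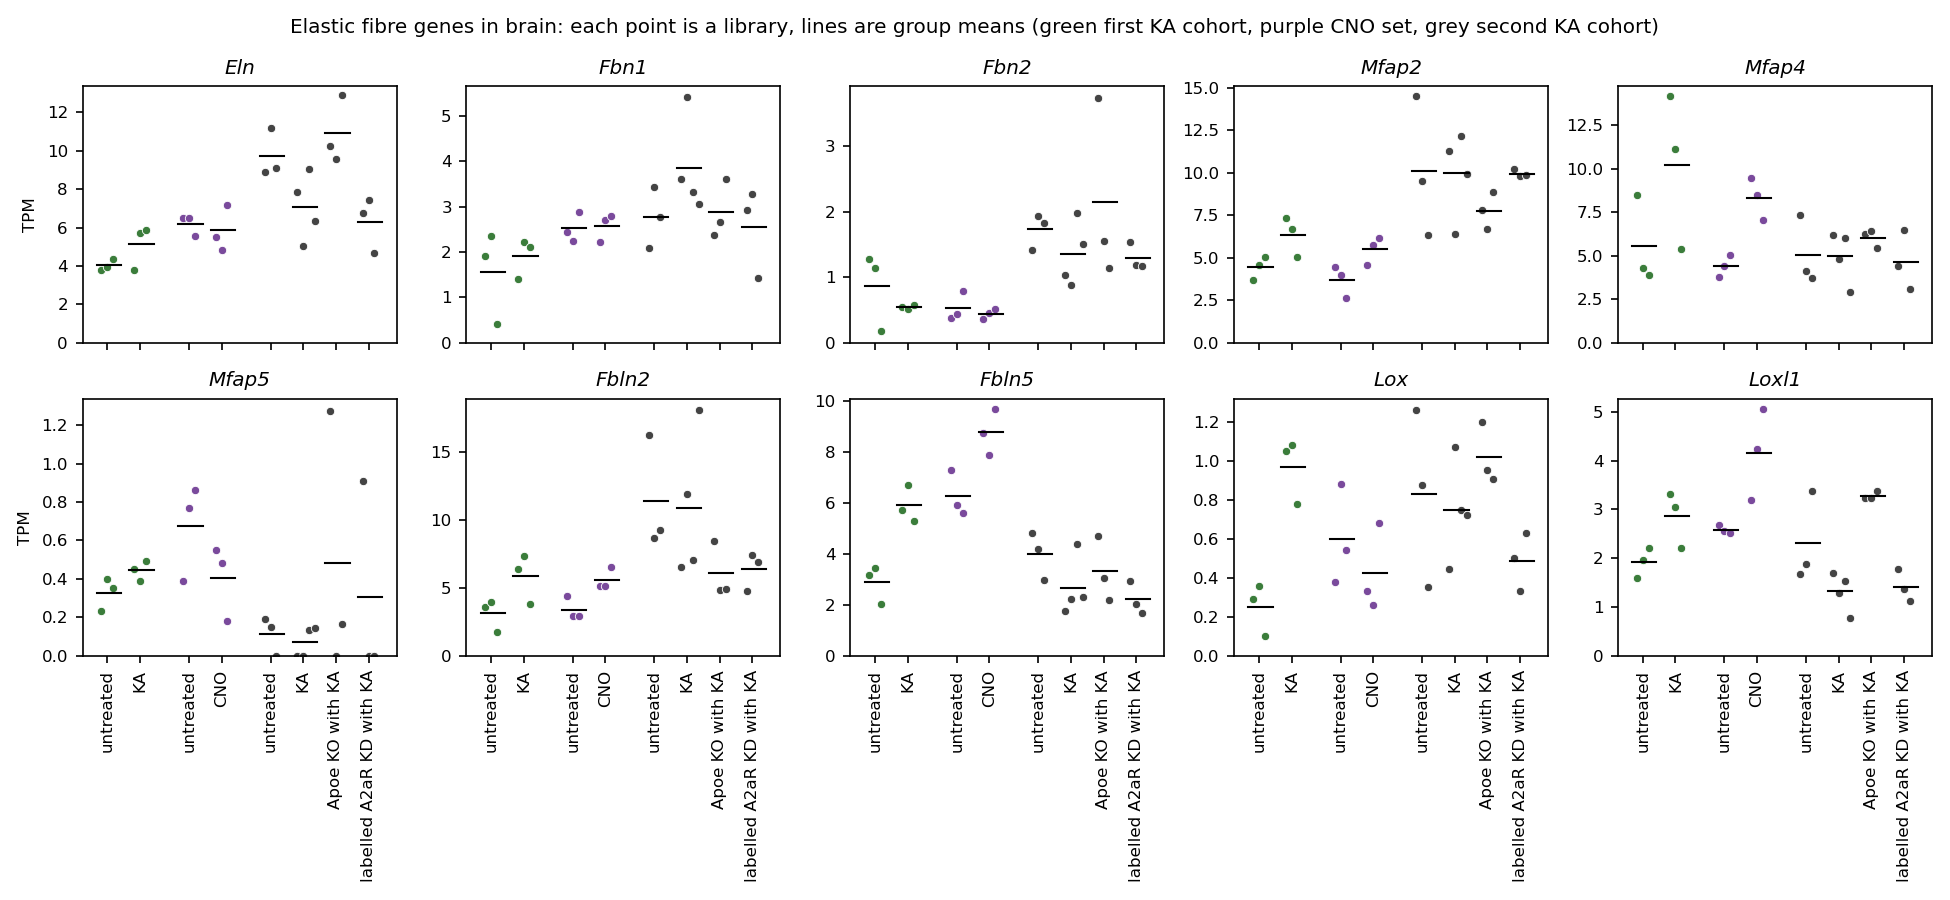
TPM of the 10 genes in the 25 brain libraries by group (points are libraries, lines are group means; green, first KA cohort; purple, CNO set; grey, second KA cohort). Mfap4 with CNO, at 7.07 to 9.47 TPM, lies above its controls at 3.79 to 5.06 TPM, and Loxl1 in Apoe knockout with KA, at 3.23 to 3.38 TPM, above KA at 0.776 to 1.70 TPM.

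In the second KA cohort all 10 members passed edgeR's filter on counts, and none passed its quasi-likelihood test in any comparison. Against untreated brain, KA gave 0 calls, where 0.0558% of all genes passed. At an unadjusted p under 0.05 there were 3 members, and 1566 of all 23318 tested genes. Eln was at 7.87, 5.05, 9.05 and 6.36 TPM with KA and 8.91, 11.2 and 9.11 TPM untreated (log2 -0.38 ± 0.18, edgeR adjusted p = 0.742). Fbln5 differed by -0.72 ± 0.23 log2 here, as a fold change of counts. In the first cohort it differed by 0.84 ± 0.23 on log2(TPM + 1), another scale, and neither passed. Standard errors in the second cohort were derived from edgeR's F statistic. Mfap5 was at 0 TPM in 6 of the 13 libraries.
Apoe knockout with KA against KA gave 0 calls by edgeR, where 0.112% of all genes passed edgeR's test. At an unadjusted p under 0.05 there were 3 members, and 2175 of all 23318 tested genes. DESeq2 called 2 members. Its own share of all genes is not given here, so that count cannot be set against the edgeR share. Loxl1, the enzyme tied to elastin upkeep in adult tissue, was at 3.23, 3.23 and 3.38 TPM in knockout and 1.70, 1.29, 1.53 and 0.776 TPM with KA alone, without overlap (log2 1.32 ± 0.30, edgeR adjusted p = 0.174, DESeq2 adjusted p = 0.00517). Eln was at 10.2, 9.58 and 12.9 TPM in knockout, above all 4 KA libraries (log2 0.67 ± 0.18, edgeR adjusted p = 0.262, DESeq2 adjusted p = 0.0397). Untreated brain overlapped the knockout in both genes. Against untreated brain the knockout with KA gave 0 calls, where 0.0943% of all genes passed. At an unadjusted p under 0.05 there were 0 members, and 1294 of all 23318 tested genes. Eln differed by 0.29 ± 0.19 and Loxl1 by 0.54 ± 0.32 log2. Fibroblast and meningeal markers without Igfbp2 summed to 132 to 157 TPM in knockout with KA, 88.1 to 108 TPM with KA and 109 to 119 TPM untreated (179 to 225, 110 to 136 and 150 to 162 with Igfbp2), and mural markers to 255 to 285, 206 to 239 and 205 to 218 TPM. Their part was not tested.
The libraries labelled A2aR knockdown with KA gave 0 calls against KA, where 0.0386% of all genes passed. At an unadjusted p under 0.05 there was 1 member, and 2156 of all 23318 tested genes. Eln stood at 6.77, 7.44 and 4.66 TPM there and Fbln2 at 4.76, 7.39 and 6.91 TPM, against 6.52, 11.9, 7.03 and 18.1 TPM with KA. The 4 comparisons of this cohort share the KA, the untreated or the Apoe knockout libraries. Over the 13 libraries the genes most like Eln outside the members were AA414768 (r = 0.919), Hat1, a histone acetyltransferase (0.897), Ptgr1 (0.896), Fundc2 (0.892) and Gskip (0.886), and among the members Loxl1 came nearest (0.742).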

How the data were processed

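Brain RNA was extracted with Trizol and made into Illumina TruSeq libraries, per the labels' protocols, which give the same text for the astrocytes. Per the submitters' processing notes the tools were HISAT2, StringTie and RSEM and the build mm10; versions and roles are not stated. The authors deposited TPM alone for 3 of the tables (astrocytes, CNO and the earlier KA cohort), a unit read from totals of 978422 to 995304 per library. Raw counts beside TPM were deposited for the other KA cohort.

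Samples were grouped by title and characteristics, and 0 columns stayed unmapped. On log2(TPM + 1), limma 3.58.1 with its trend option (R 4.3.3) tested the genes that reached 1 TPM in 3 or more libraries. For counts the test was the quasi-likelihood test of edgeR 4.0.16, with TMM and its own filter. Each table was fitted with all its groups, p-values were adjusted over its tested genes by Benjamini-Hochberg, and the threshold was 0.05. Shares, splits and medians of all genes are likewise over the tested genes. These were 16161 for astrocytes, 15331 for the first KA cohort, 15453 for the CNO set and 23318 for the second KA cohort. Interaction terms compared a treatment between genotypes. The procedures were tested on simulated data. No libraries of a group looked deposited more than once: between count libraries of a group, chi-square divided by its degrees of freedom was 46.5 to 87.0.

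The members and lists were chosen with earlier results of these data known. Genes named by rule are the 10 members, Apoe and Adora2a, up to 4 genes with the smallest p per list, and the 5 genes most correlated with Eln outside the members (no predicted genes). Col3a1 was picked from the fibroblast list outside that rule. Gfap, Acta2, Igfbp2, Xist and Ddx3y were also added by choice, as were some undetected markers. Replicate numbers pair the CNO libraries, whose same-numbered deviations correlated at 0.119 to 0.244, though the labels name no shared animal or day. Alternatives were median-ratio scaling, a pseudocount of 0.1, no filter, a replicate block, only the groups compared, DESeq2 1.42.0, and leaving out each library. A fit without the knockout palmitic acid libraries was added after seeing the data.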

Additional observations from a re-analysis of the deposited data

Results flagged for a closer look

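A treatment's effect differed between wild-type and knockout astrocytes, by the interaction term in limma, for 17 pairs of member and treatment. Values are the knockout effect minus the wild-type effect in log2(TPM + 1). With neuronal medium they were 3.21 for Eln, 2.87 for Mfap4, 1.61 for Fbln5 and 0.92 for Fbn2. With oleic acid they were 4.86 for Eln, 4.58 for Mfap4, 2.37 for Fbln2, 1.69 for Fbln5, 1.49 for Mfap5 and 1.26 for Lox. With palmitic acid they were 1.32 for Fbln5, 1.08 for Mfap2, 0.67 for Loxl1, 0.63 for Lox, 0.62 for Fbln2, 0.59 for Eln and 0.57 for Fbn1. For Eln with either acid and Mfap4 with oleic acid, the sign on this scale was fixed by low untreated knockout levels. Those means were 4.46 and 6.37 TPM, from which even complete loss would be a smaller fall than in wild type. The medium and oleic acid terms of a gene share the untreated libraries, as do the palmitic acid terms, which also rest on the knockout libraries that stood apart. Of all genes, 18.5%, 29.6% and 57.6% had a differing effect with medium, oleic and palmitic acid.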

How the results depend on the processing

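Of 106 member calls, followed through 1341 alternative values, 1288 kept their direction and their side of the threshold, 52 kept their direction and lost the threshold and 1 changed sign, Eln in the genotype by palmitic acid interaction, at -1.09 with a pseudocount of 0.1. Of 108 values not called, 33 changed sign under some alternative. The count of members called in CNO, 1, was 0 with median-ratio scaling, with no filter and with the replicate block, and 0 in each fit without a library. It was 2 in place of 0 for Apoe knockout with KA against KA by the DESeq2 test. With only the groups compared, it was 2 in place of 1 for Apoe knockout neuronal medium. In the same setting it was 8 in place of 5 for neuronal medium on knockout astrocytes. The shares of all genes called in these alternatives are not given here, so the counts are not results about the members. The cause of these changes in count was not tested. The other counts of members called stayed within 1.5 times under every alternative run. The replicate block changed no other count of members called by that much and ended 1 further call, Loxl1 in knockout against wild type with neuronal medium (adjusted p = 0.0583). In the first and second cohorts and the astrocytes same-numbered libraries did not deviate together (median correlations of -0.06, 0.00 and 0.00), and the block was not run for A2aR knockdown, where the groups share only the number 4. Mfap5 was at 0 in 6 of the 13 libraries of the second cohort, and its differences there had standard errors above 2 on the log2 scale.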
